A study of Mus musculus with 11 samples.

Results

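The difference between injured and uninjured heart tissue was measured as 1 average over 2 mouse strains. All 5 libraries of injured regions were compared with all 6 libraries of uninjured regions, with strain as an additive term, so that each region was compared within its strain. Of 15274 genes in the table, 14751 had a normalised count of at least 10 in at least 2 of the 11 libraries and were tested, and 523 were not. The second-highest value was 10.2 for Artn, just inside this limit, and 9.90 for Samd15, just outside it. The groups were uninjured regions of C57BL/6J hearts (B6 uninjured, n = 3), injured regions of the same 3 hearts (B6 injured, n = 3), uninjured regions of C3H/HeJ hearts (C3H uninjured, n = 3) and injured regions of 2 of these (C3H injured, n = 2). All mice were 8 weeks old, the titles name day 7, and the 11 libraries came from 6 animals. The sources used here do not give the method of injury or the part of the heart that each region held.

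An injured heart wall loses contractile cells and is filled by inflammatory cells and by fibroblasts that lay down collagen-rich scar matrix. Macrophages clear dead cells through their lysosomes, while transforming growth factor beta and tissue strain turn fibroblasts into matrix-secreting, partly contractile myofibroblasts. Surviving cardiomyocytes draw most of their energy from fatty acids burned in mitochondria, and the genes of this machinery are among the most abundant transcripts of a healthy heart. In RNA from bulk tissue, fewer cells of a type and less RNA of a gene per cell cannot be told apart.

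The libraries held 9699985 to 22138459 reads in genes. The first principal component (38.6% of the variance) set the C3H injured libraries, at scores of 88.1 and 102, apart from the other 9, at -68.7 to 33.1. Each strain is weighed by the precision that its numbers of injured and uninjured libraries give to its difference. B6 thus made up 55.6% and C3H 44.4% of the average effect. Summed normalised counts of 22 cardiomyocyte markers were highest of all marker lists in every group, at 1952380.0 to 2640650.0 in B6 uninjured, 1259460.0 to 1729750.0 in B6 injured, 2204140.0 to 2841760.0 in C3H uninjured and 725709 to 799523 in C3H injured libraries. All libraries are thus rich in heart muscle RNA, as labelled, and the injured ones less so. Values below are normalised counts per library in the order of the replicate numbers, and changes are log2 fold changes (injured minus uninjured, on log2 of the normalised count plus 1) with their standard error (SE) and limma's p-value after Benjamini-Hochberg adjustment over all 14751 genes. A gene is called where adjusted p is under 0.05.

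Injured regions differed from uninjured ones in 4264 genes (28.9% of those tested): 2068 were higher (14%) and 2196 lower (14.9%), and 6260 had an unadjusted p under 0.05. The increases were the larger ones. Among the called genes, 1332 rose and 663 fell by over 2-fold, and 307 rose and 15 fell by over 4-fold. Over all genes tested the median change was 0.03. Elfn1, at 1.51, was the last gene inside the threshold (adjusted p = 0.0499878), and Ncl, at -0.43, the first outside it (adjusted p = 0.0500441). A gene could reach the limit on low values through injured libraries alone: 196 genes did, 69 of which were called higher. Another 137 reached it through uninjured libraries alone, and 15 of these were called lower.

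These counts depended on single libraries. There were 720 higher and 830 lower without C3H injured library 1, and 838 higher and 813 lower without C3H injured library 2. There were also 1444 lower without B6 uninjured library 2 and 1443 lower without C3H uninjured library 3. In each of the 11 fits that left out 1 library, 654 of the 2068 higher and 724 of the 2196 lower genes were called in the same direction. Of the higher genes 1944, and of the lower genes 1941, were also called by edgeR on the recovered reads, and 1594 and 1784 under both other scalings.

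The strains contributed unequally. Genes called higher had a median change of 0.71 in B6 and 1.76 in C3H, and genes called lower one of -0.55 and -1.20. Direction was shared: 2065 of the 2068 higher genes were positive in both strains, the other 3 being negative in B6, and all 2196 lower genes were negative in both. Since the average is built from both strains, this is a description and not a test. The B6 change was the larger in 140 of the higher and 58 of the lower genes. The difference between the strains (C3H minus B6) passed its own test in 231 genes (1.57%), with 2082 at an unadjusted p under 0.05. Of these 231, 209 also had a called average effect (202 higher, 7 lower), each with the larger change in C3H. The count of 231 was 11 on leaving out C3H injured library 2 and 110 on leaving out C3H uninjured library 3. For the B6 uninjured libraries it was 83 with number 1 left out and 153 with number 2, and for the B6 injured ones 108, 145 and 107 with numbers 1, 2 and 3. Xist was at 3.14 to 12.2 in all B6 and at 1840 to 8478 in all C3H libraries, so strain cannot be told apart from sex.

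**Figure D1:**
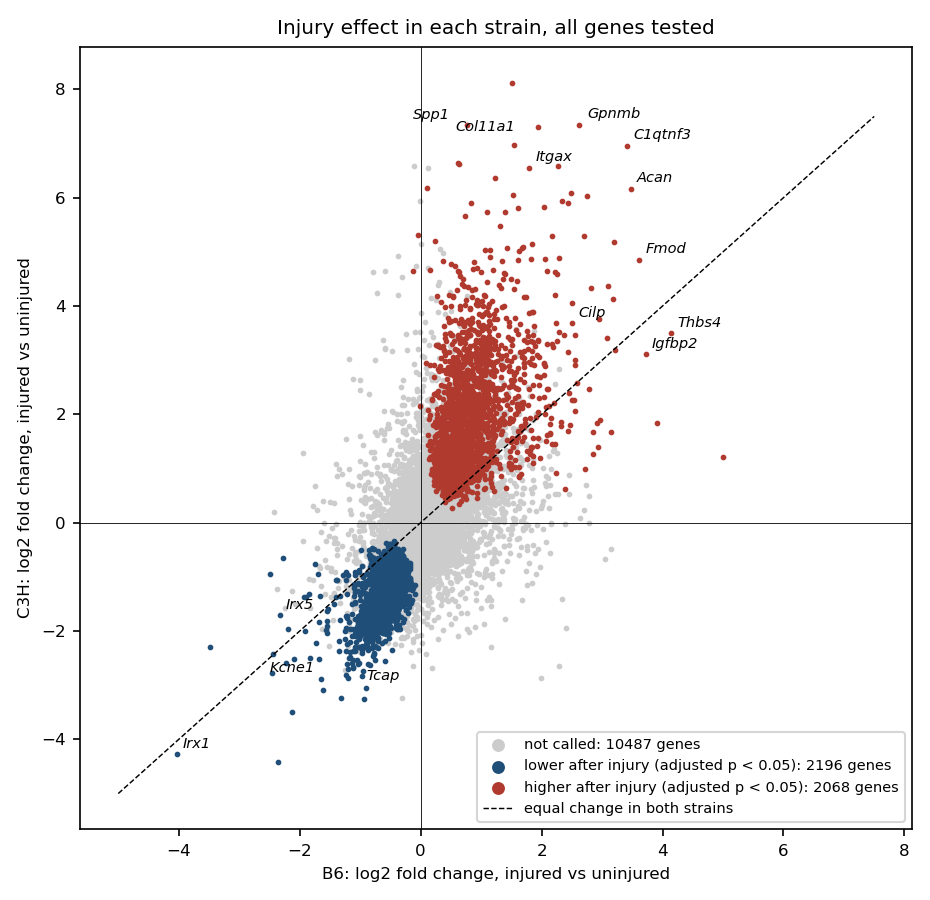
Log2 fold change of injured against uninjured regions in B6 (horizontal axis) and in C3H (vertical axis), 1 point for each of the 14751 genes tested, with the 2068 genes called higher in red, the 2196 called lower in blue, the others in grey, and a dashed line where both strains changed equally. Most red points lie above the dashed line, Spp1 far above it, and Thbs4, Igfbp2, Irx1 and Irx5 lie near it.

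For 242 of the 4264 called genes, 80 higher and 162 lower, the 95% interval of the strain difference lay within 1 log2 unit on either side of 0. The share was larger over all genes tested, at 2467 of 14751. This description was chosen after the data were seen. Fbln5, which helps to assemble elastic fibres, rose by 0.94 (SE 0.16, adjusted p = 0.00966), at 1159.5, 782 and 909 in B6 uninjured, 1601, 1924 and 1518 in B6 injured, 795, 701 and 749 in C3H uninjured and 1895 and 1322 in C3H injured libraries. Its strain difference had an interval of -0.44 to 0.93, and injured and uninjured libraries did not overlap within either strain. Psat1, an enzyme of serine synthesis, rose by 0.89 (SE 0.21, adjusted p = 0.0110). Sord, which makes fructose from sorbitol, was at 2285, 3766 and 2561 in B6 uninjured, 1651, 1315 and 1632 in B6 injured, 1878, 1724 and 1643 in C3H uninjured and 749.7 and 880.5 in C3H injured libraries. Every injured value of Sord was below the uninjured values of its strain, a change of -0.98 (SE 0.16, adjusted p = 0.00966) with an interval of -0.91 to 0.46 for the difference.

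Injured and uninjured libraries did not overlap within B6, nor within C3H, for 1077 genes that were higher (7.3% of those tested) and 899 that were lower (6.09%). Among these, the called genes with a mean of at least 50 were ranked by the size of the change. C1qtnf3, Gpnmb and Col11a1 led the increases, and Irx1, Wif1 and Dbh the decreases. Promoters of the first 3 increases are shown because their genes led this ranking, from 250 bases before to 50 after the start (RefSeq, build GRCm38.p6, all on the plus strand). C1qtnf3 lies at chr15:10952082-10952381, Gpnmb at chr6:49036268-49036567 and Col11a1 at chr3:114030290-114030589. Capitals mark, in turn, a match to the TEAD motif GGAATG, a match to the AP-1 motif TGANTCA, and a match on the minus strand to the ERR motif TNAAGGTCA.
C1qtnf3: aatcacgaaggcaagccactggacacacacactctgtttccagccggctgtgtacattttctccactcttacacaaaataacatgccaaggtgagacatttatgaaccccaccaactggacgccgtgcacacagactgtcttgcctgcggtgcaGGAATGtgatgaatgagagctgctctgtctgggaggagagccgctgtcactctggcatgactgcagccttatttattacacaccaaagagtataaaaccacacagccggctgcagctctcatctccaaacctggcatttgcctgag
Gpnmb: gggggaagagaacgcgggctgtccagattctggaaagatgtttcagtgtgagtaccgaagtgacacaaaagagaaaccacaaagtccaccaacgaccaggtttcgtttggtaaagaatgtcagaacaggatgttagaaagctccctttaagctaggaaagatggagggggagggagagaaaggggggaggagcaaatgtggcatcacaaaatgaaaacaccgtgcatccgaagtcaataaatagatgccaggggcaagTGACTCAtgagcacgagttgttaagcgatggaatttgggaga
Col11a1: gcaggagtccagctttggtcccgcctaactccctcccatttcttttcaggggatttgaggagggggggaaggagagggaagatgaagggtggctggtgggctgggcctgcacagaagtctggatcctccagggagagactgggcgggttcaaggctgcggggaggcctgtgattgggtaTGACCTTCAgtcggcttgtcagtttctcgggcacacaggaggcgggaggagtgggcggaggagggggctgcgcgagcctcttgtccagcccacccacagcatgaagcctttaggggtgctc
The promoters of Wif1 and Dbh held none of these motifs and no CArG box. Irx1 had no entry. All 4 motifs were searched on both strands, and the AP-1 match in Gpnmb fits the motif on each. AP-1 matches stood in 6.66% of 1547 promoters of genes called higher, 4.37% of 1692 of genes called lower and 5.27% of 7832 of genes not called. The share was 5.33% over the 11071 promoters of genes tested. It was 7.81% over all 32851 promoters in the table, which include genes not tested and further starts of a gene. In the same order, TEAD matches stood in 12.8%, 13.4%, 12.1%, 12.4% and 14.7%. ERR matches stood in 0.84%, 0.768%, 0.664%, 0.705% and 1.28%, and CArG boxes in 1.16%, 1.71%, 1.3%, 1.35% and 1.63%. Of the 14751 genes tested, 11071 had a promoter in the table. A match describes these letters only.

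Secreted matrix proteins held the gene with the smallest adjusted p of the whole comparison. Thbs4, a thrombospondin of tendon and injured muscle matrix, had normalised counts of 222, 106 and 153 in B6 uninjured, 2399.7, 4081 and 2081 in B6 injured, 271, 436 and 342 in C3H uninjured and 5751 and 2619 in C3H injured libraries. All 5 injured libraries lay above all 6 uninjured ones. Thbs4 rose by 3.86 (SE 0.28, adjusted p = 4.74e-05), with 4.15 in B6 and 3.50 in C3H, and the strain difference had an interval of -1.84 to 0.54. Fmod, a small proteoglycan that binds collagen fibrils, was at 66.3, 29.0 and 40.1 in B6 uninjured, 435, 672 and 513 in B6 injured, 58.4, 20.9 and 61.3 in C3H uninjured and 2621 and 599 in C3H injured libraries. It rose by 4.16 (SE 0.43, adjusted p = 0.00106), again with no overlap of injured and uninjured libraries.

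C1qtnf3, a secreted protein with a C1q domain that is also made by cartilage, led the ranking of increases. It stood at 45.0, 12.4 and 16.5 in B6 uninjured, 233, 353 and 155 in B6 injured, 2.97, 7.33 and 2.66 in C3H uninjured and 1228 and 309 in C3H injured libraries, and rose by 4.99 (SE 0.65, adjusted p = 0.00732), with 3.41 in B6 and 6.96 in C3H. Ltbp2, a microfibril protein of the latent TGF-beta binding family, rose by 4.09 (SE 0.69, adjusted p = 0.00966). Acan, the large proteoglycan of cartilage, was near the floor in uninjured tissue, at 0, 0 and 4.71 in B6 uninjured, 7.34, 51.1 and 17.2 in B6 injured, 0.99, 3.14 and 0 in C3H uninjured and 199.8 and 104 in C3H injured libraries. Every injured library held more Acan than any uninjured one, by 4.67 on average. Since Acan passed the limit on low values through injured libraries alone, this is a description. Comp, another cartilage and tendon matrix protein, rose by 3.49 (SE 0.54, adjusted p = 0.00966) and Cilp, an intermediate-layer cartilage protein also found in heart scars, by 3.03 (SE 0.40, adjusted p = 0.00782).

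**Figure D2:**
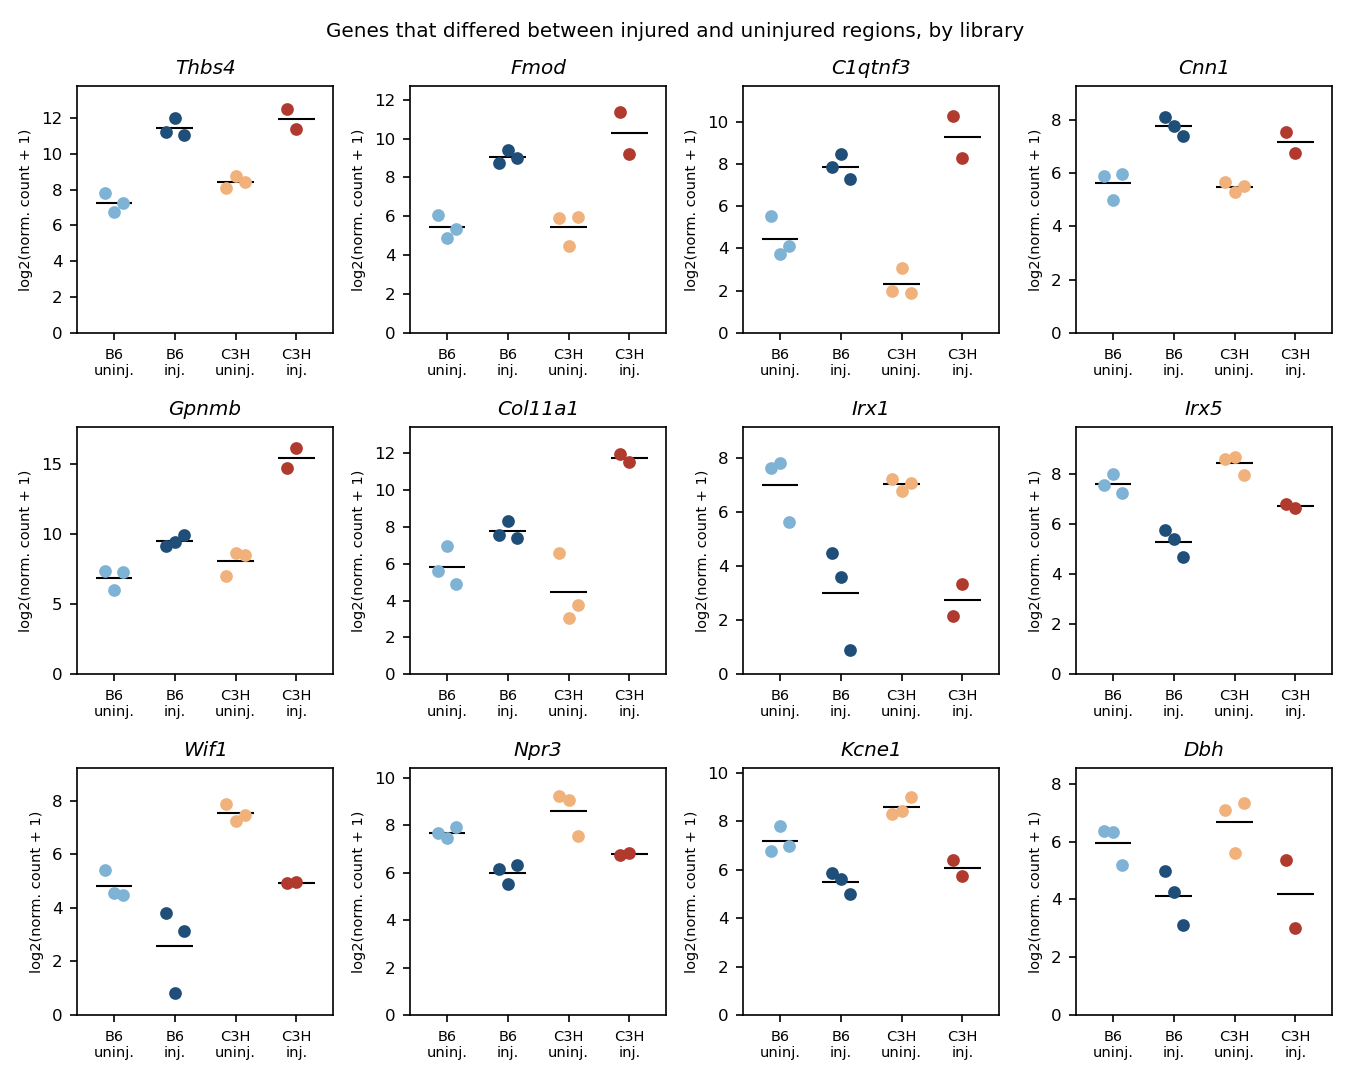
Log2 of the normalised count plus 1 (vertical axis) of 12 genes in each library, grouped on the horizontal axis as B6 uninjured, B6 injured, C3H uninjured and C3H injured, with 1 point per library and a bar at each group mean. Thbs4, Fmod, C1qtnf3, Cnn1, Gpnmb and Col11a1 are higher in injured libraries of both strains, and Irx1, Irx5, Wif1, Npr3, Kcne1 and Dbh lower.

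Of 22 tested matricellular proteins and proteoglycans 16 rose, against 14% of all genes tested, and 0 fell. Their median change was 1.95 (1.04 in B6 and 3.24 in C3H). Injured libraries of 11 of them lay above uninjured ones without overlap in both strains, against 7.3% of all genes tested. Acan, which passed the limit on low values through injured libraries alone, is among the 22 and among these 11. Among those that rose were the proteoglycans Bgn (1.88) and Aspn (1.48) and the thrombospondins Thbs2 (1.53) and Thbs3 (1.39), each called in all 11 fits that left out 1 library. Postn and Tnc, adhesive proteins of healing tissue, rose by 2.10 and 2.66, but neither was called without C3H injured library 1 or 2. Dcn, the most familiar proteoglycan of resting fibroblasts, was at 0.21 (SE 0.24, adjusted p = 0.527). The count of 16 was 9 on leaving out C3H injured library 1 or C3H injured library 2, and 9 of the 16 were called in every such fit.

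Collagen chains rose together: 15 of 17 rose, against 14% of all genes tested, with a median of 1.91 (1.02 in B6 and 3.00 in C3H). For all 15 the regions did not overlap in either strain, as for 7.3% of all genes tested. Col11a1, a chain of the thin fibrils of cartilage, was at 48.5, 122 and 28.3 in B6 uninjured, 187, 319 and 170.2 in B6 injured, 96.0, 7.33 and 12.4 in C3H uninjured and 4081 and 3024 in C3H injured libraries. It rose by 4.33 (SE 0.92, adjusted p = 0.00972), and the C3H injured libraries stood far above all others. Col1a1, the main chain of scar collagen, was at 74734, 28299 and 50472 in B6 uninjured, 75903, 91923 and 113665 in B6 injured, 79234, 3346 and 13753 in C3H uninjured and 225512 and 165107 in C3H injured libraries. Uninjured values of Col1a1 spread widely, and the highest one, in C3H uninjured library 1, exceeded the lowest of B6 injured tissue. Col1a1 rose by 2.16 (SE 0.72, adjusted p = 0.0392), a call that edgeR did not make. Without B6 uninjured library 2, B6 injured library 2 or 3, C3H uninjured library 3, or C3H injured library 1 or 2, Col1a1 was not called. Col8a2 (3.67), Col12a1 (3.72), Col8a1 (2.01) and Col16a1 (1.81) were called in all 11 of these fits.

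C3H uninjured library 2 held little collagen, at a median of -3.17 log2 units from the genes' means, against -1.22 and 0.22 in the other C3H uninjured libraries. The count of 15 was 5 on leaving out C3H injured library 1, 6 on leaving out C3H injured library 2 and 9 on leaving out B6 uninjured library 2, and 5 were called in each such fit. Col9a2, a cartilage chain kept in another list, differed in that B6 changed most. It was at 1.18, 0 and 0 in B6 uninjured, 34.2, 44.8 and 43.8 in B6 injured, 27.7, 1.05 and 5.33 in C3H uninjured and 24.2 and 9.89 in C3H injured libraries. Its injured libraries were 3.32 higher on average, with 5.01 in B6 and 1.20 in C3H. Among uninjured libraries C3H uninjured library 1 alone reached 10. Since Col9a2 thus passed the limit on low values through injured libraries, this is a description. edgeR did not call Col9a2, and its strain difference did not pass (adjusted p = 0.187).

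Against 14% of all genes tested, enzymes that process and crosslink collagen rose in 10 of 17 cases (median 0.80). All 5 lysyl oxidases, which crosslink collagen and elastin, were among them, with Loxl3 at 2.54 (SE 0.45, adjusted p = 0.00966) and Lox at 1.86 (SE 0.43, adjusted p = 0.0112). Loxl3 stood at 536, 170.1 and 348 in B6 uninjured, 779, 1189 and 878 in B6 injured, 304, 85.8 and 156 in C3H uninjured and 2171 and 2242 in C3H injured libraries, without overlap in either strain. The prolyl hydroxylase subunits P4ha1 (0.22, adjusted p = 0.459) and P4ha2 (-0.14, adjusted p = 0.619) were not called, whereas P4ha3 was, at 2.61 (SE 0.71, adjusted p = 0.0182), although not without C3H injured library 1 or 2. The count of 10 was 3 on leaving out C3H injured library 1, 5 on leaving out C3H injured library 2 and 6 on leaving out B6 uninjured library 2. Lox, Loxl3 and Loxl4 were the 3 called in all fits that left out 1 library.

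Proteases that cut matrix and their inhibitors were called higher in 13 of 23 genes (median 1.38, 0 lower), against 14% of all genes tested. Mmp2, the gelatinase of fibroblasts, had the smallest p of the list, at 4668, 2578 and 2939 in B6 uninjured, 5577, 6710.4 and 6496 in B6 injured, 3998, 2794 and 3799 in C3H uninjured and 12040.5 and 15239 in C3H injured libraries and a rise of 1.38 (SE 0.23, adjusted p = 0.00966). Adamts12 rose by 2.89 (SE 0.64, adjusted p = 0.0101) and Adam8, a metalloproteinase of leukocytes, by 3.16 (SE 0.67, adjusted p = 0.00970). Of the 4 inhibitors, Timp2 rose by 1.04 (SE 0.22, adjusted p = 0.00966), and Timp1 (1.22), Timp3 (0.44) and Timp4 (-1.26) were not called. The count of 13 was 8 on leaving out C3H injured library 2, and 8 were called in every fit that left out 1 library.

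Genes of the TGF-beta pathway rose from ligand to target (14 of 21 higher, against 14% of all genes tested, 0 lower, median 0.90). Medians were 0.70 in B6 and 1.10 in C3H. Among the ligands, Tgfb3 rose by 1.58 (SE 0.34, adjusted p = 0.00980), Tgfb2 by 0.97 (SE 0.27, adjusted p = 0.0193) and Inhba, the activin A subunit, by 2.74 (SE 0.68, adjusted p = 0.0132). Tgfb2 changed by 0.97 in B6 and 0.97 in C3H. The receptor Tgfbr1 rose by 1.41 (SE 0.29, adjusted p = 0.00966), and the target Ctgf by 1.13 (SE 0.23, adjusted p = 0.00966). Tgfb2 and Inhba were not called without C3H injured library 1, and the count of 14 was 8 on leaving out C3H injured library 1.

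Contractile genes of the same list differed in their response. Cnn1, which encodes smooth muscle calponin, was at 59.2, 31.1 and 61.3 in B6 uninjured, 277, 218 and 168 in B6 injured, 50.5, 38.7 and 44.4 in C3H uninjured and 186 and 108 in C3H injured libraries. All injured libraries exceeded all uninjured ones, and Cnn1 rose by 1.93 (SE 0.26, adjusted p = 0.00782), with 2.14 in B6 and 1.66 in C3H. Tagln, another smooth muscle protein, rose by 0.97 (SE 0.24, adjusted p = 0.0127), though not without C3H injured library 1. Acta2, the smooth muscle actin that defines myofibroblasts, was at 6493, 4291 and 3546 in B6 uninjured, 9854, 7074 and 4678 in B6 injured, 7010.4, 2010.0 and 5616 in C3H uninjured and 6378 and 2539.7 in C3H injured libraries. Injured and uninjured values of Acta2 overlapped in both strains, and its change was 0.28 (SE 0.36, adjusted p = 0.577). Mural cell markers were called higher in 3 of 13 genes (Cnn1, Lmod1 and Pdgfrb) and lower in 2, against 14% and 14.9% of all genes tested, and their part in these changes was not tested.

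Secreted Wnt antagonists went both ways. Sfrp1, which binds Wnt ligands, was at 3025, 1074 and 1159.5 in B6 uninjured, 3748, 5277 and 4287 in B6 injured, 629, 313 and 615 in C3H uninjured and 4303 and 2188 in C3H injured libraries and rose by 2.00 (SE 0.33, adjusted p = 0.00966). Its relatives Sfrp2 (2.35, SE 0.52, adjusted p = 0.0101) and Frzb (1.16, SE 0.22, adjusted p = 0.00966) and the Dickkopf-family gene Dkk3 (1.77, SE 0.36, adjusted p = 0.00966) rose as well. Wif1, another secreted Wnt inhibitor, was at 41.4, 22.8 and 21.2 in B6 uninjured, 13.05, 0.786 and 7.74 in B6 injured, 234, 151 and 178 in C3H uninjured and 29.4 and 30.4 in C3H injured libraries. Wif1 fell by 2.39 (SE 0.46, adjusted p = 0.00966), with -2.23 in B6 and -2.58 in C3H, from unequal levels, and C3H injured values lay within the range of B6 uninjured ones. Of the Wnt ligands, Wnt4 alone was called (1.03, SE 0.35, adjusted p = 0.0414), in 4 of the 11 fits that left out 1 library and not after quantile normalization. The 6 others lay between -0.11 for Wnt5b and 0.23 for Wnt11. In all, 7 of 17 rose and 1 fell, against 14% and 14.9% of all genes tested (median 1.03, or 0.53 without C3H injured library 1).

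Growth factor genes of the IGF and PDGF families were called higher in 7 of 16 cases, against 14% of all genes tested, and lower in 0 (median 0.36). Igfbp2, an IGF binding protein, was almost silent in uninjured tissue, at 3.55, 0 and 2.36 in B6 uninjured, 36.7, 50.3 and 17.2 in B6 injured, 1.98, 1.05 and 0 in C3H uninjured and 17.3 and 12.7 in C3H injured libraries. Its injured libraries were 3.45 higher on average, at levels that stayed low, and as it passed the limit on low values through them alone this is a description. Igfbp2 is counted among the 7. Igfbp4, another binding protein, rose by 0.97 (SE 0.21, adjusted p = 0.00980), with 1.16 in B6 and 0.74 in C3H. Pdgfc, a ligand for the fibroblast receptor, rose by 1.84 (SE 0.34, adjusted p = 0.00966), and Igf1 by 1.18 (SE 0.32, adjusted p = 0.0185), the latter not without C3H injured library 1 or 2. The count of 7 was 3 on leaving out C3H injured library 1 or C3H injured library 2.

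Beside these matrix changes, 4 of 16 fibroblast markers rose and 2 fell, against 14% and 14.9% of all genes tested, with a median of 0.54. With the animal as a random block 7 rose. Their summed normalised counts were 54554 to 72916 in B6 uninjured, 60003 to 74282 in B6 injured, 63668 to 74482 in C3H uninjured and 70208 to 72829 in C3H injured libraries. The 4 that rose were Gpx3, Pdgfra, Lamc1 and Mfap5, and Scara5 and Gsn fell. None of the 6 calls stood in every fit that left out 1 library. The list holds markers of resting fibroblasts, and its part in the matrix changes was not tested.

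Macrophage genes rose in both strains, at very different scales. Gpnmb, a lysosomal membrane glycoprotein of lipid-laden macrophages, was at 161, 62.2 and 157 in B6 uninjured, 556, 683 and 966 in B6 injured, 129, 397 and 363 in C3H uninjured and 26682 and 70193 in C3H injured libraries. It rose by 4.72 (SE 0.74, adjusted p = 0.00966), with 2.61 in B6 and 7.35 in C3H, and the C3H injured libraries stood far above all others. Itgax, the CD11c integrin of macrophages and dendritic cells, was at 27.2, 22.8 and 35.4 in B6 uninjured, 93.8, 109 and 97.1 in B6 injured, 22.8, 48.2 and 54.2 in C3H uninjured and 2765 and 5132 in C3H injured libraries, a rise of 3.91 (SE 0.70, adjusted p = 0.00966). Cd22, a sialic acid receptor known from B cells, rose by 3.85 (SE 0.47, adjusted p = 0.00481), from at most 12.4 in uninjured to at least 40.8 in injured libraries. None of 7 B cell markers was called (median 0.44), and which cells held Cd22 was not tested. Atp6v0d2, a proton pump subunit known from osteoclasts, rose by 4.18 (SE 0.78, adjusted p = 0.00966).

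Markers of macrophages and monocytes were called higher in 14 of 19 cases, against 14% of all genes tested, and lower in 0. Their median was 1.51 (0.72 in B6 and 2.68 in C3H), and 9 of the 14 were called in every fit that left out 1 library. Adgre1, the F4/80 antigen, rose by 2.15 (SE 0.42, adjusted p = 0.00966), and Ms4a7 by 2.54 (SE 0.35, adjusted p = 0.00782). Ccr2, the receptor of recruited monocytes, was at 289, 419 and 219 in B6 uninjured, 600.1, 951 and 619.8 in B6 injured, 133, 169.6 and 107 in C3H uninjured and 1029.9 and 850.1 in C3H injured libraries. Injured values of Ccr2 exceeded uninjured ones in each strain, by 1.93 (SE 0.30, adjusted p = 0.00966). The markers of resident macrophages Lyve1 (-0.0017, SE 0.39, adjusted p = 0.998) and Cd163 (-0.22, SE 0.54, adjusted p = 0.778) were not called, and neither were Mrc1 (0.62) and F13a1 (-0.17). With the animal as a fixed block Cd163 passed, at adjusted p = 0.0394 and -0.56. The list's summed counts were 25055 to 32215 in B6 uninjured, 37785 to 49079.6 in B6 injured, 14771 to 29819 in C3H uninjured and 82586 to 142720.0 in C3H injured libraries. The count of 14 was 9 on leaving out C3H injured library 2.

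Lysosomal and phagocytic genes rose in 17 of 22 cases, against 14% of all genes tested, with 0 lower (median 1.54, with 0.51 in B6 and 2.86 in C3H). The strain difference passed its own test in 16 of the 22, against 1.57% of all genes tested, always with the larger change in C3H. That count was 1 on leaving out C3H injured library 2, 9 on leaving out B6 uninjured library 1, and 10 on leaving out B6 uninjured library 2, B6 injured library 3 or C3H uninjured library 3. Trem2, a lipid-sensing receptor of macrophages, rose by 2.33 (SE 0.44, adjusted p = 0.00966) and Lgals3, galectin-3, by 2.82 (SE 0.60, adjusted p = 0.00966). Cd68 was at 536, 394 and 445 in B6 uninjured, 750.1, 1068 and 984 in B6 injured, 351, 544 and 404 in C3H uninjured and 6002 and 8740.4 in C3H injured libraries, with a strain difference at adjusted p = 0.00394 that was called in each of the 11 fits leaving out 1 library. General lysosome membrane genes Lamp1 (0.33) and Lamp2 (0.47) were not called. The count of 17 was 9 on leaving out C3H injured library 1 and 10 on leaving out C3H injured library 2.

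**Figure D3:**
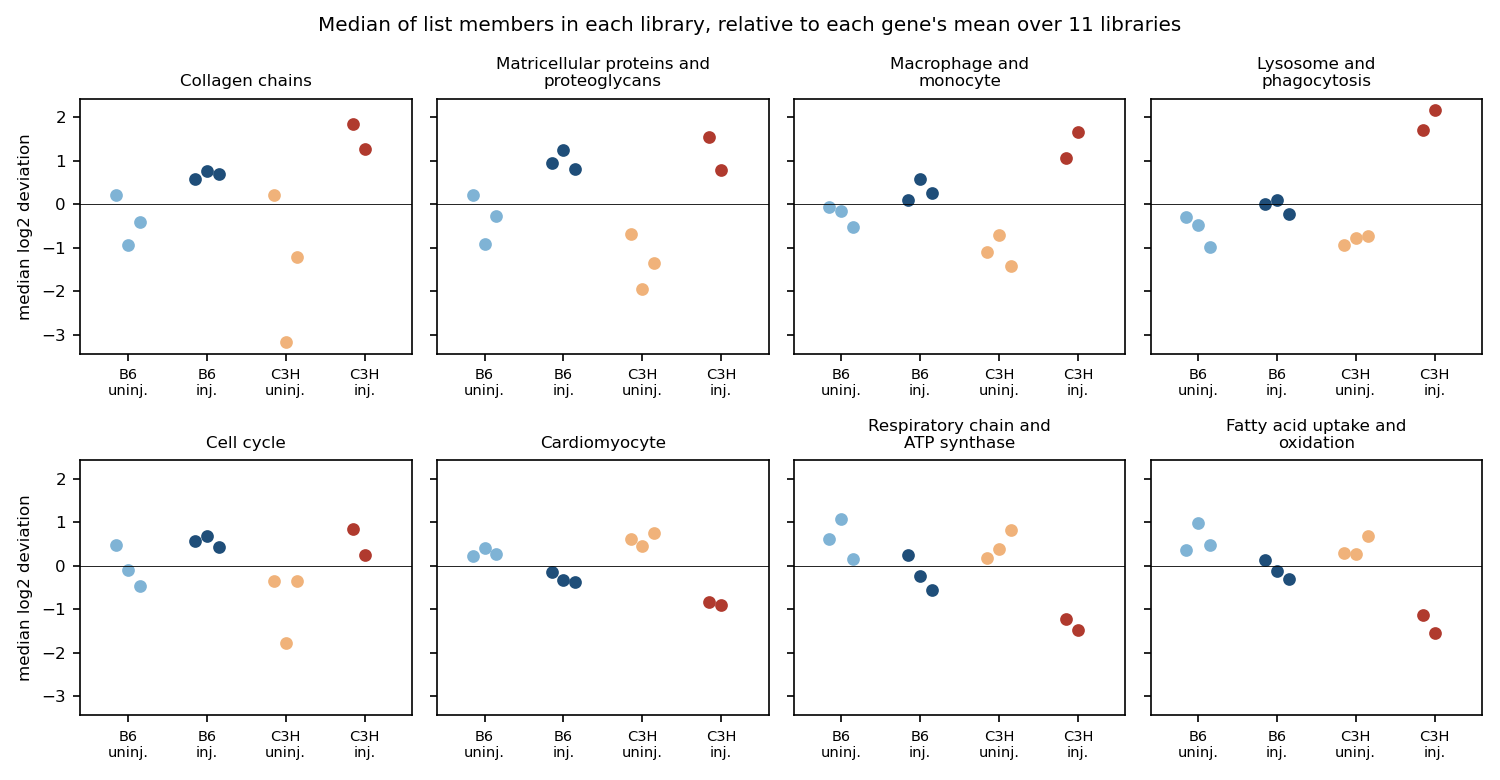
Median over the tested members of 8 gene lists of the log2 deviation from each gene's mean over 11 libraries (vertical axis), 1 point per library, grouped on the horizontal axis by strain and region. The collagen, macrophage and lysosome lists are highest in the C3H injured libraries and the cardiomyocyte, respiratory chain and fatty acid lists lowest there, and C3H uninjured library 2 is lowest for collagen chains at -3.17.

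Complement genes, whose products tag debris and microbes, were called higher in 11 of 16, against 14% of all genes tested, and lower in 0 (median 0.92). C3ar1, the receptor of the C3a fragment, rose by 2.31 (SE 0.47, adjusted p = 0.00966), and the protease gene C1ra by 0.77 (SE 0.18, adjusted p = 0.0107), with 0.69 in B6 and 0.86 in C3H. The count of 11 was 3 on leaving out C3H injured library 2, 6 on leaving out C3H injured library 1 and 7 on leaving out B6 injured library 2 or C3H uninjured library 3. Against 14% of all genes tested, chemokines and their receptors rose in 8 of 22 (median 1.13), led by the fractalkine receptor Cx3cr1 at 2.36 (SE 0.55, adjusted p = 0.0110). Ccl11, the eosinophil chemokine eotaxin, was the 1 that fell: it was at 59.2, 97.5 and 36.5 in B6 uninjured, 37.5, 21.2 and 28.4 in B6 injured, 68.3, 125 and 96.8 in C3H uninjured and 19.9 and 29.0 in C3H injured libraries, a change of -1.44 (SE 0.32, adjusted p = 0.0104). The count of 8 was 5 on leaving out C3H injured library 1 or C3H injured library 2.

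Interferon response genes were called higher in 6 of 20 cases, against 14% of all genes tested, with 0 lower and a median of 0.45, or 0.28 without C3H injured library 1. Stat2, a transducer of type I interferon signals, was at 659, 444 and 572 in B6 uninjured, 548, 1083 and 995 in B6 injured, 405, 279.5 and 287 in C3H uninjured and 831 and 611 in C3H injured libraries. B6 injured library 1 lay below B6 uninjured libraries 1 and 3, and Stat2 rose by 0.85 (SE 0.22, adjusted p = 0.0157), without its call when C3H injured library 1 was left out (adjusted p = 0.0650). None of the 6 calls stood in all fits that left out 1 library, and the count was 0 on leaving out C3H injured library 1, 1 on leaving out C3H injured library 2 and 2 on leaving out B6 injured library 2. Among other leukocyte lists, 3 of 14 T and NK cell markers rose (Il7r, Klrb1c and Cd4), against 14% of all genes tested, and 5 with the animal as a fixed block. Cd4 rose by 1.60 (SE 0.34, adjusted p = 0.00981), and Il7r, the interleukin-7 receptor, by 3.54 (SE 0.69, adjusted p = 0.00966). Csf3r was the 1 of 11 neutrophil markers that rose (2.03, SE 0.37, adjusted p = 0.00966), with 14% of all genes tested called higher. Neutrophil markers stood high in C3H uninjured library 2, at a median of 3.28 log2 units from the genes' means, and in C3H injured library 2, at 2.59. None of 6 mast cell markers was called. Endothelial markers gave 1 higher and 1 lower of 18 (median -0.04), against 14% and 14.9% of all genes tested. Pecam1 was at 0.02 (SE 0.14, adjusted p = 0.931).

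Cell cycle genes were called higher in 14 of 25 (median 1.00), against 14% of all genes tested, and in 7 after quantile normalization. Foxm1, which drives mitotic transcription, was at 97.0, 43.6 and 67.2 in B6 uninjured, 109, 129 and 174 in B6 injured, 81.2, 30.4 and 36.4 in C3H uninjured and 203 and 172 in C3H injured libraries and rose by 1.47 (SE 0.32, adjusted p = 0.0101). Top2a, which untangles replicated DNA, rose by 1.67 (SE 0.38, adjusted p = 0.0105) and Mki67, the Ki-67 antigen, by 1.69 (SE 0.42, adjusted p = 0.0133), the latter not without C3H injured library 1. Of 6 minichromosome maintenance genes, Mcm6 (0.81) and Mcm3 (0.65) rose and the other 4 were not called. Cenpf, a kinetochore gene, went the other way, at 298, 371 and 464 in B6 uninjured, 255, 179.9 and 233 in B6 injured, 1215, 633 and 527 in C3H uninjured and 491 and 396 in C3H injured libraries. It fell by 0.75 (SE 0.22, adjusted p = 0.0256), with -0.75 in B6 and -0.75 in C3H. The call was lost on leaving out library 2 of B6 uninjured or B6 injured, or either C3H injured library. The count of 14 was 2 on leaving out C3H injured library 1, 6 on leaving out C3H injured library 2, 7 on leaving out B6 uninjured library 2 or B6 injured library 2 and 9 on leaving out B6 uninjured library 3, and Foxm1 and Top2a were the 2 called in every fit that left out 1 library.

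Bone and mineral genes were mixed, with 6 of 16 higher and 1 lower (median 0.39), against 14% and 14.9% of all genes tested. Runx1, a transcription factor of blood and skeletal cells, was at 293, 174 and 202 in B6 uninjured, 380.0, 521 and 534 in B6 injured, 127, 72.2 and 58.6 in C3H uninjured and 1442 and 1167 in C3H injured libraries. It rose by 2.39 (SE 0.45, adjusted p = 0.00966), with 1.12 in B6 and 3.98 in C3H. Runx2, the osteoblast factor, rose by 1.59 (SE 0.32, adjusted p = 0.00966) and Enpp1, which makes the mineral inhibitor pyrophosphate, by 1.70 (SE 0.36, adjusted p = 0.00966). Ank, which exports pyrophosphate or its precursor, fell by 0.71 (SE 0.16, adjusted p = 0.0108), with -0.61 in B6 and -0.85 in C3H. Spp1, osteopontin, shows what the average can hide: its values were 579, 1319 and 266 in B6 uninjured, 962, 1654 and 641 in B6 injured, 160.4, 377 and 356 in C3H uninjured and 38800.5 and 52487 in C3H injured libraries. Spp1 was higher in the injured region of each of the 3 B6 mice, although the B6 regions overlapped between mice, and far higher in C3H (0.77 in B6 and 7.34 in C3H). The average was 3.69 (SE 0.98, adjusted p = 0.0167), which was not called without C3H injured library 1 or 2, nor by edgeR. The count of 6 was 3 on leaving out C3H injured library 1 or C3H injured library 2.

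All 6 Iroquois homeobox genes, transcription factors that pattern the ventricle and its conduction system, were called lower, and Irx1 led the ranking of decreases. Irx1 was at 196, 222 and 48.3 in B6 uninjured, 21.2, 11.0 and 0.86 in B6 injured, 148, 108 and 134 in C3H uninjured and 3.46 and 9.19 in C3H injured libraries. All injured values lay below all uninjured ones, and Irx1 fell by 4.14 (SE 0.59, adjusted p = 0.00966), with -4.03 in B6 and -4.27 in C3H. Irx5, which sets the gradient of repolarizing current across the ventricular wall, was at 187, 257 and 153 in B6 uninjured, 53.0, 40.8 and 24.9 in B6 injured, 394, 412 and 250.4 in C3H uninjured and 109.8 and 99.6 in C3H injured libraries and changed by -2.05 (SE 0.26, adjusted p = 0.00481). Irx2 changed by -3.27 (SE 0.69, adjusted p = 0.00970) and Irx3 by -1.38 (SE 0.21, adjusted p = 0.00966). B6 uninjured library 3 held far less Irx1 and Irx2 than its 2 companions, and its Irx2 value of 8.25 lay within the B6 injured range. Irx4 (-0.82) was not called without C3H injured library 1 or 2, and Irx6 (-1.13, adjusted p = 0.0455) not with the animal as a fixed block (adjusted p = 0.105), by edgeR, after TMM scaling, or in 7 of the 11 fits that left out 1 library.

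Other cardiac transcription factors fell less or were not called. Nkx2-5 fell by 1.09 (SE 0.26, adjusted p = 0.0122), more in C3H (-1.96) than in B6 (-0.39, adjusted p of the difference 0.0264), and not without C3H injured library 1. The difference was called in 5 of the 11 fits that left out 1 library. Hand2 fell by 1.02 (SE 0.22, adjusted p = 0.00998). Gata4 (-0.41), Tbx20 (0.05) and Mef2c (-0.08) were not called. Of 19 factors 9 fell, against 14.9% of all genes tested, and 0 rose (median -0.41). Among the 9, 6 were Iroquois genes. The count of 9 was 5 on leaving out C3H injured library 1.

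Potassium channel genes led the next group. Kcne1, the accessory subunit of the slow delayed rectifier, was at 106, 219.8 and 123 in B6 uninjured, 56.3, 47.9 and 30.9 in B6 injured, 312, 341 and 506 in C3H uninjured and 82.1 and 51.6 in C3H injured libraries. Injured values lay below uninjured ones in each strain, by -2.05 (SE 0.28, adjusted p = 0.00782). Its partner Kcnq1 fell by 0.65 (SE 0.16, adjusted p = 0.0119) and Kcnip2, a subunit of the transient outward channel, fell by 1.25 (SE 0.24, adjusted p = 0.00966). Of 23 potassium and sodium channel genes 10 fell, against 14.9% of all genes tested, and 0 rose (median -0.70). The count of 10 was 6 on leaving out C3H injured library 1 or C3H injured library 2. Calcium handling genes fell in 6 of 15 (median -0.69), against 14.9% of all genes tested, and in 3 after quantile normalization (median -0.28). Hrc, which binds calcium in the sarcoplasmic reticulum, was at 15922, 18204 and 16920.3 in B6 uninjured, 11648, 8669 and 9783 in B6 injured, 30829, 15107 and 23376 in C3H uninjured and 6624 and 4626 in C3H injured libraries and changed by -1.32 (SE 0.27, adjusted p = 0.00966). Atp2a2, the calcium pump of that store, was at -0.84 (SE 0.37, adjusted p = 0.0984) and the release channel Ryr2 at -0.34 (SE 0.35, adjusted p = 0.476). The count of 6 was 2 on leaving out C3H injured library 1 or C3H injured library 2 and 3 on leaving out B6 uninjured library 2.

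Genes of mitochondrial energy supply fell in nearly every case tested. All 26 of 26 tested subunits of the respiratory chain and ATP synthase fell (median -1.29; -0.81 in B6 and -1.80 in C3H), against 14.9% of all genes. Ndufa1, a small subunit of complex I, was at 5440.3, 7014 and 2883 in B6 uninjured, 3704, 2004 and 1668 in B6 injured, 2909, 3835 and 4547 in C3H uninjured and 957 and 813 in C3H injured libraries. B6 values overlapped through the low B6 uninjured library 3, C3H values did not, and Ndufa1 changed by -1.50 (SE 0.29, adjusted p = 0.00966). Cox7a1, the muscle form of a cytochrome oxidase subunit, was at 26073, 31777 and 14393 in B6 uninjured, 17045, 10144 and 8191 in B6 injured, 12625, 12263 and 19261 in C3H uninjured and 3303 and 1733 in C3H injured libraries and changed by -1.72 (SE 0.35, adjusted p = 0.00966). Separation within both strains was seen for 10 of the 26, against 6.09% of all genes tested. Of these 26, 21 were called in every fit that left out 1 library.

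TCA cycle genes fell in 17 of 17 (median -1.17, 13 in every fit that left out 1 library), against 14.9% of all genes tested. After quantile normalization 12 fell (median -0.76). Dld, the lipoamide dehydrogenase shared by several mitochondrial complexes, was at 9464, 16551 and 9618 in B6 uninjured, 8488, 6297 and 5859 in B6 injured, 9955, 11219.6 and 11681 in C3H uninjured and 3794 and 3025 in C3H injured libraries, a change of -1.17 (SE 0.23, adjusted p = 0.00966) without overlap in either strain. Fatty acid uptake and oxidation genes fell in 21 of 25 (median -1.19, 16 in every fit that left out 1 library), against the same 14.9%. With quantile normalization 17 fell (median -0.83). Slc25a20, the carnitine carrier of the inner membrane, was at 3986, 6232 and 4098 in B6 uninjured, 3171, 2318 and 2523 in B6 injured, 3474, 3393 and 3785 in C3H uninjured and 1246 and 1032 in C3H injured libraries and changed by -1.19 (SE 0.20, adjusted p = 0.00966). Acadm, the medium-chain dehydrogenase, changed by -1.46 (SE 0.27, adjusted p = 0.00966). Cpt1b, the muscle carnitine transferase, was among the 4 not called, at -0.01 (SE 0.37, adjusted p = 0.990), with 0.76 in B6 and -0.97 in C3H.

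Catabolism of branched-chain amino acids and ketones fell in all 17 of 17 genes (median -0.88), against 14.9% of all genes tested, and in 14 with quantile normalization. Mccc1, a subunit of the leucine-degrading carboxylase, was at 2011, 3038 and 2262 in B6 uninjured, 1677, 1397 and 1318 in B6 injured, 1414, 1812 and 1752 in C3H uninjured and 596 and 634 in C3H injured libraries. No values overlapped within a strain, and Mccc1 changed by -1.03 (SE 0.18, adjusted p = 0.00966). Here 12 of 17 genes separated within both strains (6.09% of all genes did so), and 11 were called in every fit that left out 1 library, the count being 11 on leaving out C3H injured library 1. Among glycolysis and hypoxia genes, the muscle forms Pgam2 (-1.42, SE 0.32, adjusted p = 0.0103), Eno3 (-1.36, SE 0.28, adjusted p = 0.00966) and Pfkm (-0.97, SE 0.22, adjusted p = 0.0110) fell, the last not after quantile normalization. The widely expressed Pgam1 (0.51) and Pfkp (0.30) were not called, and the lactate exporter Slc16a3 rose by 1.10 (SE 0.32, adjusted p = 0.0251), although not without C3H uninjured library 3 or C3H injured library 1 or 2. Ldhb, the heart form of lactate dehydrogenase, was at 24814, 33876 and 21096 in B6 uninjured, 18607, 13136 and 11656 in B6 injured, 23091, 34082 and 36240.4 in C3H uninjured and 8108 and 8116 in C3H injured libraries and changed by -1.34 (SE 0.26, adjusted p = 0.00966). In that list 12 of 22 fell and 1 rose (median -0.70), against 14.9% and 14% of all genes tested. After quantile normalization 4 fell and 3 rose, with a median of -0.37. The 12 were 4 on leaving out C3H injured library 1 or C3H injured library 2 and 7 on leaving out B6 uninjured library 2.

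Regulators of these genes fell in 6 of 14 cases (median -0.64, or -0.42 without C3H injured library 1), against 14.9% of all genes tested. Rxrg, a nuclear receptor partner, was at 1339, 1887 and 1568 in B6 uninjured, 1116, 984 and 934 in B6 injured, 1313, 1458 and 1951 in C3H uninjured and 470.4 and 397 in C3H injured libraries and changed by -1.18 (SE 0.22, adjusted p = 0.00966). Tfam, which maintains mitochondrial DNA, fell by 0.95 (SE 0.21, adjusted p = 0.0103), and Ppargc1a, the PGC-1 alpha coactivator, fell by 0.64 (SE 0.23, adjusted p = 0.0489), but the last call was not made by edgeR and stood in 1 of the 11 fits that left out 1 library. Ppara (-0.43) and Esrra (-0.71) were not called. The count of 6 was 2 on leaving out C3H injured library 1 or C3H injured library 2 and 3 on leaving out B6 injured library 2 or C3H uninjured library 1 or C3H uninjured library 2.

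Cardiomyocyte markers fell with the energy genes, in 15 of 22 cases, against 14.9% of all genes tested (median -1.02, with -0.62 in B6 and -1.56 in C3H). Tcap, the telethonin of the Z-disc, was at 47830.3, 68863 and 27423 in B6 uninjured, 28369, 20911 and 17617 in B6 injured, 58687, 66860.0 and 71698 in C3H uninjured and 9726 and 11914 in C3H injured libraries and changed by -1.73 (SE 0.34, adjusted p = 0.00966). Tnni3, cardiac troponin I, changed by -1.65 (SE 0.36, adjusted p = 0.00998). Other sarcomere genes were not called: Myh6, the alpha myosin chain, was at -0.99 (SE 0.38, adjusted p = 0.0682) and Ttn, titin, at -0.69 (SE 0.37, adjusted p = 0.171). Median levels per library, relative to each gene's mean, were 0.21, 0.40 and 0.27 in B6 uninjured, -0.16, -0.33 and -0.38 in B6 injured, 0.61, 0.45 and 0.75 in C3H uninjured and -0.83 and -0.91 in C3H injured libraries. Those of the respiratory chain were 0.61, 1.08 and 0.16 in B6 uninjured, 0.24, -0.23 and -0.57 in B6 injured, 0.18, 0.39 and 0.83 in C3H uninjured and -1.22 and -1.49 in C3H injured libraries. The part of the cardiomyocyte share in the metabolic changes was not tested. The count of 15 was 4 on leaving out C3H injured library 1 and 5 on leaving out C3H injured library 2. After quantile normalization, which moved the median of all genes by -0.0805, 4 markers were called lower and their median was -0.42. Respiratory genes were called lower in 21 of 26 cases under the same scaling, and the lists were not tested against each other.

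**Figure D4:**
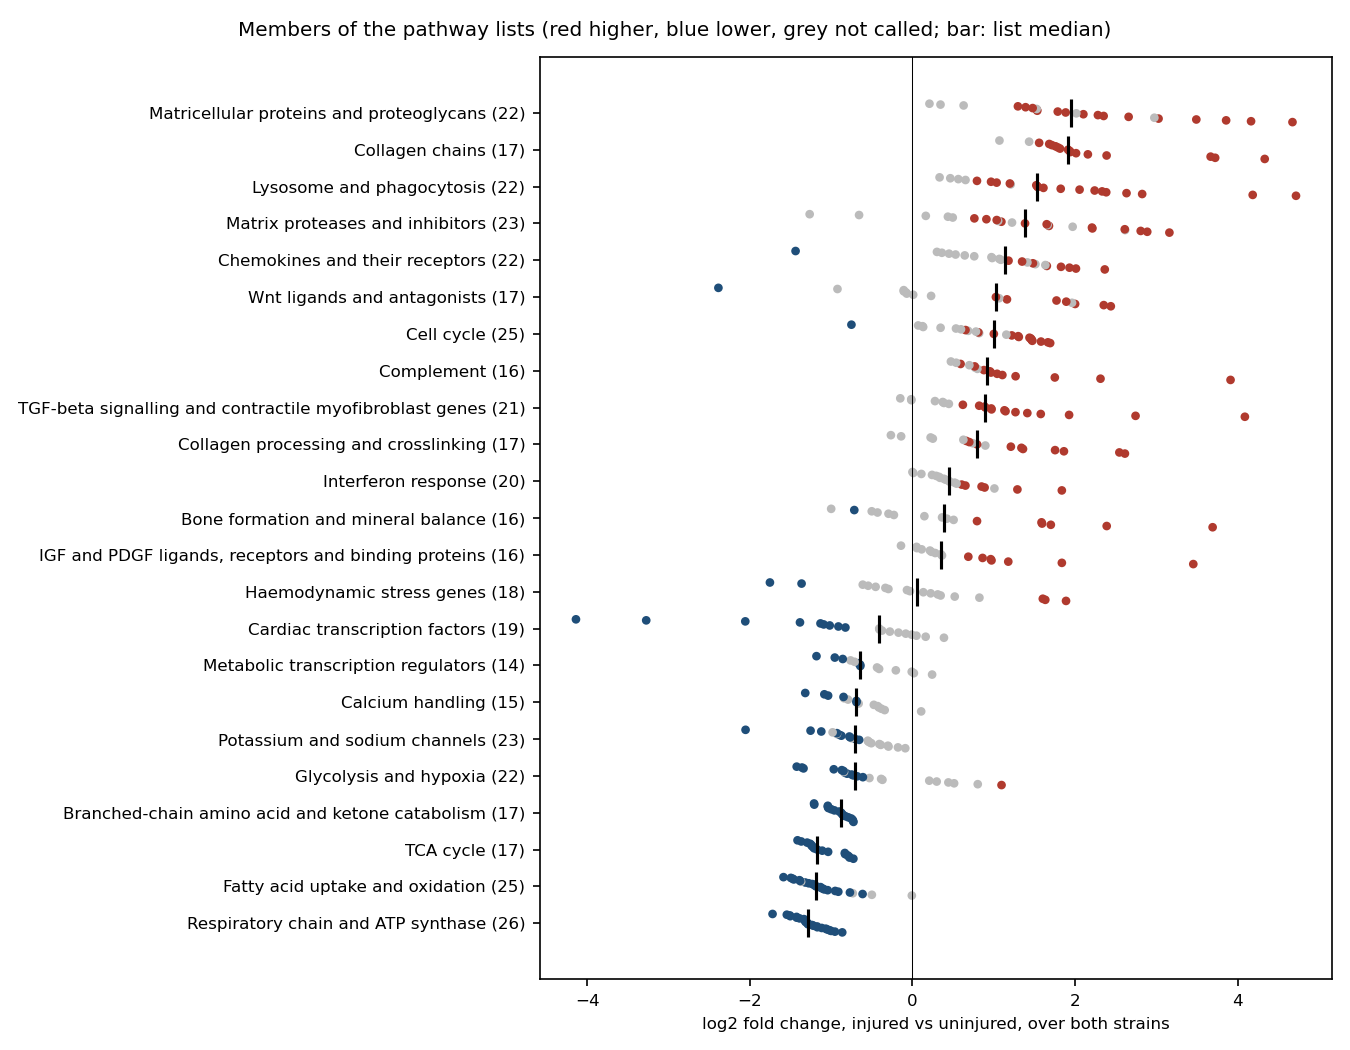
Log2 fold change, injured against uninjured over both strains (horizontal axis), of each tested member of 23 pathway lists (vertical axis, number of members in brackets), red where called higher, blue where called lower and grey where not called, with a bar at the list median. Matrix lists lie to the right with medians up to 1.95, and respiratory chain, fatty acid, TCA and branched-chain lists lie to the left with every called member below 0.

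Genes of wall stress were called higher in 3 of 18 cases and lower in 2, against 14% and 14.9% of all genes tested. Their median of 0.05 changed sign on leaving out single libraries, and after quantile normalization it was 0.45, with 5 higher. Nppa, the atrial natriuretic peptide, was at 8007, 2893 and 3403 in B6 uninjured, 21258, 27047 and 8439 in B6 injured, 10416, 69974 and 16226 in C3H uninjured and 52736 and 51908 in C3H injured libraries. The C3H uninjured library 2 held more Nppa than either C3H injured one, and the rise of 1.63 (SE 0.48, adjusted p = 0.0252) was not called without that strain's injured library 1 or 2, C3H uninjured library 3, or library 2 of B6 uninjured or B6 injured, nor by edgeR. Npr3, which clears natriuretic peptides, was at 201, 176 and 243 in B6 uninjured, 70.1, 44.8 and 79.9 in B6 injured, 597, 529.7 and 186 in C3H uninjured and 105 and 112 in C3H injured libraries. It fell by 1.75 (SE 0.29, adjusted p = 0.00966), with -1.68 in B6 and -1.84 in C3H and no overlap within either strain. Gdf15, a stress cytokine, rose by 1.60 (SE 0.46, adjusted p = 0.0221), with 2.39 in B6 and 0.62 in C3H, a call lost on leaving out library 2 of B6 uninjured or B6 injured, or C3H injured library 1. Nppb (0.13), Myh7 (-0.33) and Ankrd1 (-0.03) were not called. Of 9 atrial markers 2 rose (Nppa and Dkk3) and 2 fell, against 14% and 14.9% of all genes tested.

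The other genes of the decrease ranking had varied roles. Dbh, which makes noradrenaline, was at 81.6, 78.8 and 35.4 in B6 uninjured, 31.0, 18.1 and 7.74 in B6 injured, 136, 47.1 and 159.8 in C3H uninjured and 39.8 and 7.07 in C3H injured libraries and changed by -2.12 (SE 0.51, adjusted p = 0.0118). Fbp2, the muscle fructose bisphosphatase, changed by -1.80 (SE 0.25, adjusted p = 0.00782), and Snai3, a zinc finger factor, by -1.81 (SE 0.32, adjusted p = 0.00966). Ces1d, a lipase-like carboxylesterase, changed by -1.68 (SE 0.29, adjusted p = 0.00966). It belongs to a family of similar genes, and how reads shared between them were counted is not given here. Igsf1 was at 372, 369 and 306 in B6 uninjured, 231, 157 and 162 in B6 injured, 496, 90.0 and 472 in C3H uninjured and 83.0 and 9.19 in C3H injured libraries. C3H uninjured library 2 lay near C3H injured library 1, and the change of -1.97 (SE 0.61, adjusted p = 0.0302) missed the threshold without C3H uninjured library 1 (adjusted p = 0.0511) or 3 (0.0612) or C3H injured library 1 (0.0518) or 2 (-1.20, adjusted p = 0.0784). All 5 animals with both regions moved the stated way for each gene of both rankings. The rule of no overlap within either strain fixes this in advance, so it adds no evidence.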

How the data were processed

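RNA sequencing libraries were made from injured and uninjured regions of hearts of C57BL/6J and C3H/HeJ mice, and the replicate is the animal. Per the submitters' processing notes, the authors used TopHat2 2.0.11, HTSeq 0.6.1 and DESeq with mouse build mm9, and the deposited signal is a normalised read count per gene. Dividing each column by its smallest step gave whole reads for all values at a tolerance of 1e-06, 9699985 to 22138459 reads per library, so the precision of low genes is limited by few reads. The unit is not a raw count, so limma 3.58.1 (R 4.3.3) was fitted with a mean-variance trend to log2 of the value plus 1, with terms for strain and region (8 residual degrees of freedom), and with 4 group means (7) for the strain difference. P-values are two-sided, Benjamini-Hochberg adjusted over 14751 genes, and reach no further than these animals. In the main fit the spread they measure holds differences between animals and also unequal injury effects of the strains. For Gpnmb the SE was 0.74 there, against 0.50 for B6 in the fit of 4 group means. Both fits take the regions of an animal as independent. Fold changes on this scale understate low genes. edgeR 4.0.16 and DESeq2 1.42.0 on the recovered reads, other pseudocounts, filters and scalings, the animal as a block, and each library left out were the alternatives. The additive fit was also run on simulated data with equal injury effects in both strains and independent regions. That run does not cover unequal strain effects or paired regions.

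The labels name the mouse, so 5 animals pair an injured with an uninjured region. The correlation of residuals between regions of an animal was 0.276, -0.014 and 0.524 for the B6 mice, and 0.305 and 0.575 for the C3H mice. Genes and gene lists were chosen with earlier results of these data known. Named were the 10 largest called changes in each direction whose regions did not overlap within either strain and whose mean reached 50, and the called member with the smallest p of each of 23 pathway lists where it was not yet named. Some genes that meet these rules are not reported here. Other list members were named after their values were seen. Of 686 listed symbols, 635 were found. Promoters came from RefSeq, matched by symbol.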

Additional observations from a re-analysis of the deposited data

Results flagged for a closer look

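For 4 of the genes named by rule, the change with injury differed between the strains by its own test, with the larger rise in C3H in each case. The difference (C3H minus B6, log2) was 5.36 for Col11a1 (95% interval 2.87 to 7.86, adjusted p = 0.0391), 4.76 for Itgax (3.59 to 5.93, adjusted p = 0.00364), 4.74 for Gpnmb (3.10 to 6.37, adjusted p = 0.0110) and 2.86 for Runx1 (1.86 to 3.86, adjusted p = 0.0113). The test was limma's, Benjamini-Hochberg adjusted across the 14751 genes. On leaving out each library in turn, the call stood in 11 of 11 fits for Itgax, in 10 for Gpnmb and Runx1 (not without C3H injured library 2), and in 2 for Col11a1. Col11a1 lost it without C3H uninjured library 2 or 3, either C3H injured library, B6 uninjured library 1 or 2, or any B6 injured library. The difference stayed positive, with a lowest value of 4.66 for Col11a1, 4.31 for Itgax, 4.04 for Gpnmb and 2.63 for Runx1. Strain and sex cannot be told apart here. No group had 4 or more libraries, so single libraries were not tested as outliers.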

How the results depend on the processing

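The 2068 higher and 2196 lower genes ranged from 720 to 2592 and from 813 to 2675 when single libraries were left out. The lowest counts came without C3H injured library 1 (720 higher, 830 lower) and C3H injured library 2 (838 higher, 813 lower), and the lower genes were 1444 without B6 uninjured library 2 and 1443 without C3H uninjured library 3. Under every other planned setting, counts were within 1.5 times of the 2068 and 2196. With all libraries kept, they ran from 1770 higher (quantile normalization) to 2686 (animal as a random block). Lower genes then ran from 1913 (no mean-variance trend) to 2751 (random block). DESeq2 called 2381 higher and 2664 lower, and edgeR 2057 and 1960. Genes that moved without overlap in both strains, 1077 higher and 899 lower, numbered 1120 to 1877 and 914 to 2308 on leaving out libraries, since fewer libraries overlap less. They exceeded 1.5 times the count without B6 uninjured library 1 (1635 and 1422), B6 uninjured library 3 (1877 and 2308) or B6 injured library 1 (1840 and 2064). The 231 genes with a strain difference were 722 by DESeq2, 152 without the trend and 233 by edgeR, and 11 (without C3H injured library 2) to 272 (without B6 uninjured library 3) on leaving out libraries. The cause was not tested.

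With the animal as a replicate block, 2127 higher and 2117 lower genes were called with a fixed block, and 2686 and 2751 with a random one, and no call among the genes named by rule changed. Of 827 values of these genes under the alternatives, 822 kept their direction and call, 5 kept only their direction (Igsf1 in 4, Stat2 in 1) and 0 reversed. Of 918 list medians, 897 moved by less than the spread between replicates (1 SD) and 13 changed sign, those of the haemodynamic stress, mast cell, neutrophil and Schwann cell lists. Quantile normalization moved the median of all genes by -0.0805 and TMM by 0.0211. Depth limits the genes with at most 3 reads in uninjured libraries, whose ratios have wide intervals.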

Other observations

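Among the genes tested, 7 had at most 3 reads over all 6 uninjured libraries, and their ratios are given from reads scaled to depth with exact 95% intervals that cover counting error only. Epha3, an ephrin receptor, had 2 uninjured and 224 injured reads, a ratio of 114 (31.3 to 951), with 39 of the injured reads in B6 and 185 in C3H. St18, a zinc finger factor, had 1 and 150 reads, a ratio of 153 (27.1 to 6090). Emilin3, an extracellular matrix glycoprotein, had 3 and 215 reads, a ratio of 73.2 (24.7 to 358). Tnmd, tenomodulin, a membrane protein of tendon cells, had 1 and 43 reads, a ratio of 43.9 (7.47 to 1770). Its reads lay mostly in B6, with 36 against 7 in C3H. These genes passed the limit on low values through injured libraries alone, so the ratios are a description. Dcstamp, a fusion protein of osteoclasts and macrophage giant cells, had 1 and 76 reads, 74 of the latter in C3H. Prss50, a serine protease gene, had 2 uninjured reads, both in B6, and 64 injured reads, all in C3H (ratio 32.7, 8.69 to 276). B6 injured libraries held 0 reads of Prss50. Lipn had 0 uninjured and 35 injured reads, all in C3H, at least 11.9-fold higher against a floor of 3 reads over the group. Dcstamp, Prss50 and Lipn were not called by limma (adjusted p = 0.0612, 0.173 and 0.117).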
